A study of Mus musculus with 24 samples.

Results

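The interaction of the Med12 hairpin with retinoic acid (RA) asks whether the difference between cells with and without that hairpin is the same before and after RA. It was computed for each gene as the log2 difference of shMed12 from shNMC cells after RA, minus the same difference in mouse embryonic stem cells (mESCs). The same number is the RA response of shMed12 cells minus the RA response of shNMC cells. It rests on 12 of the 24 libraries of the series and was tested in 15995 of the 22609 gene symbols in the files. A positive interaction means that the hairpin effect was higher after RA than in mESCs, and a negative one that it was lower.

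The cells were E14TG2a, an established mESC line of the 129/Ola strain, and poly-A RNA was sequenced with strand-specific reads of 50 bp. RA shMed12 cells carried a stable short hairpin against Med12 and had 24 h of all-trans RA at 1e-06 M without LIF, the cytokine that holds mESCs in self-renewal. RA shNMC cells had the same treatment and a stable hairpin with no mammalian target. The mESC shMed12 and mESC shNMC cells carried the same hairpins and were kept in serum with LIF, without feeder cells. Each group had 3 libraries. RA shCdk8 and mESC shCdk8 cells, with a hairpin against Cdk8 and 3 libraries each, took no part in the interaction and served to sort genes by their RA response. All groups with RA lacked LIF, so the effects of RA and of LIF removal cannot be told apart. The labels give neither the number of hairpin sequences or clones nor whether replicates were separate cultures, so p-values measure the spread between these libraries, which may be technical.

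Mediator is the large complex that links transcription factors to RNA polymerase II. Med12 belongs to its kinase module, in which it activates the kinase Cdk8. RA enters the nucleus and binds RA receptors, which sit with RXR partners on paired hexamer sites and switch from repressing to activating their targets when the ligand arrives. In mESCs RA withdraws cells from pluripotency and activates Hox genes, the RA receptor gene Rarb and Cyp26a1, whose product degrades RA.

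The gene counts per library were 41.2 to 56.5 M, so that 3 reads stood for 0.0532 to 0.0774 CPM (counts per M reads in genes, with TMM-scaled library sizes), and 17216 to 18129 symbols had a read. Within a group, libraries differed beyond counting noise (chi-square per gene 7.24 to 50.8). The hairpin target came first. Med12 had 39.2, 45.4 and 60.9 CPM in the RA shMed12 libraries and 96.4, 123 and 145 CPM in the RA shNMC libraries. It had 35.5, 44.0 and 46.7 CPM in the mESC shMed12 libraries and 131, 127 and 141 CPM in the mESC shNMC libraries. Med12 was thus lower with its hairpin in every library of both states (log2 -1.32 after RA and -1.66 in mESCs, SE 0.16 each), and its own interaction did not pass (log2 0.34, SE 0.23, edgeR adjusted p = 0.36). Cdk8 was not called in either state. The stem cell label was checked with Pou5f1, Nanog, Sox2, Zfp42 and Esrrb, which were present in all 12 libraries. Pou5f1, which encodes Oct4, had 611, 592 and 727 CPM in the mESC shMed12 libraries and 882, 901 and 943 CPM in the mESC shNMC libraries.

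The promoters below are those of the 3 genes called in the interaction that hold a direct repeat of RA receptor hexamers with a spacer of 5 bases. Both strands of 32851 RefSeq windows of build GRCm38.p6, from 250 bases before to 50 after a gene's start, were searched for pairs in the same orientation of a half-site with the letters AGGTCA. Half-sites with the letters AGTTCA were allowed too, as were GGGTCA as well as the GGTTCA of the Rarb element. The pattern matched 32 windows (0.0974%) of 31 genes, of which 6 were tested here, and 11110 of the tested genes had a window. The match is in capitals, and the 250 bases before the start are given 5′ to 3′ on the strand of the gene. The authors' counts were made on mm9, so these coordinates serve only to place the sequences.
Rarb, chr14:16575477-16575726, minus strand: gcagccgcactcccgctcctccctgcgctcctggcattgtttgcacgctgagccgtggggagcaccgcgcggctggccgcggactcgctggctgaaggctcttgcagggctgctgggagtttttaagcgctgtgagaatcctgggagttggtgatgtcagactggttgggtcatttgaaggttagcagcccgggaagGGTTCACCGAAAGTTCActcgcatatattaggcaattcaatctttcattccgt
Cyp26a1, chr19:37697558-37697807, plus strand: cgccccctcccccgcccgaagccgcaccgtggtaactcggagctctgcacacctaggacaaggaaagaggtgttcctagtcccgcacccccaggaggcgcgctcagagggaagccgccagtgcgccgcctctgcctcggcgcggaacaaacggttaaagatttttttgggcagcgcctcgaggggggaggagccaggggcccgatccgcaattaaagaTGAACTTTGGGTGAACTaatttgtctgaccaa
Prokr2, chr2:132385448-132385697, minus strand: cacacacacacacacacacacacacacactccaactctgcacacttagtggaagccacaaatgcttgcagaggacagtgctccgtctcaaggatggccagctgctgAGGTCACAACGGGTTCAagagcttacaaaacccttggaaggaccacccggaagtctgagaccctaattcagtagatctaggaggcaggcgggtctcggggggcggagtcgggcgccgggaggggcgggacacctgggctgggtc
The Rarb match starts 53 bases before the start of the gene and is the textbook RA response element of that receptor gene. The Cyp26a1 match starts 32 bases before the start and reads on the opposite strand, and the Prokr2 match lies 144 bases before it.

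These 3 promoters stood before genes whose interactions differed in sign. Rarb had 28.8, 26.8 and 26.2 CPM in the RA shMed12 libraries and 41.9, 40.4 and 30.0 CPM in the RA shNMC libraries. It had 0.349, 0.336 and 0.407 CPM in the mESC shMed12 libraries and 1.79, 1.37 and 1.49 CPM in the mESC shNMC libraries, so its level was lower with the hairpin in both states, and the groups did not overlap within either state. The gap was narrower after RA, which gives a positive interaction (log2 1.61, SE 0.26, edgeR adjusted p = 0.00061). Cyp26a1 had 286, 274 and 264 CPM in the RA shMed12 libraries and 371, 386 and 261 CPM in the RA shNMC libraries, where the groups overlapped and the difference did not pass (edgeR adjusted p = 0.20). It had 5.30, 5.21 and 2.24 CPM in the mESC shMed12 libraries and 1.56, 1.41 and 1.31 CPM in the mESC shNMC libraries, so in mESCs it was higher with the hairpin in every library, and its interaction was negative (log2 -1.85, SE 0.36, edgeR adjusted p = 0.0039). Without RA shNMC 3 or mESC shMed12 3 the after-RA difference of Cyp26a1 passed, with a sign opposite to that in mESCs. Prokr2, which encodes a prokineticin receptor, had 1.13, 1.17 and 0.983 CPM in the RA shMed12 libraries and 2.27, 2.29 and 1.56 CPM in the RA shNMC libraries. In mESCs it had 0.744, 0.619 and 0.366 CPM in the mESC shMed12 libraries and 0.0831, 0.135 and 0.297 CPM in the mESC shNMC libraries, so the hairpin line was lower after RA and higher in mESCs, and the interaction was negative (log2 -2.67, SE 0.47, edgeR adjusted p = 0.0015). The other 3 tested genes with a match, Blvrb, Ppbp and Tnfsf13b, were not called. Thus 3 of 6 were called, beside 14.0% of all genes tested. Of these 6 genes, 4 were RA-induced in shCdk8 cells, a group set out below in which 30.0% had a lower interaction. Any part of the match in the interaction was not tested. Prokr2 was chosen for its promoter match after its values were seen.

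Of all genes tested, 2237 were called in the interaction (14.0%), 709 of them higher (4.43%) and 1528 lower (9.55%) at an edgeR adjusted p under 0.05. Interactions of at least 2-fold were higher in 151 genes (0.944%) and lower in 719 (4.50%). The hairpin effect within a state covered more genes: 4216 genes were higher (26.4%) and 4548 lower (28.4%) after RA, and 4297 were higher (26.9%) and 3944 lower (24.7%) in mESCs. The median log2 value over all genes was -0.04 for the interaction. Leaving out a single library moved the count of higher genes by more than 1.5 times for RA shNMC 2 (456 genes), mESC shMed12 1 (451) and mESC shMed12 2 (469). Without RA shNMC 3 the counts were 1054 higher and 1855 lower.

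Genes were sorted by the state in which the hairpin difference was called. A difference called in mESCs but not after RA was found in 622 genes, 438 with a lower and 184 with a higher interaction. A difference called after RA but not in mESCs was found in 495 genes, 301 lower and 194 higher. In 594 genes the difference was called in both states, in the same direction, and was narrower after RA (478 lower, 116 higher), and in 313 it was wider after RA (171 lower, 142 higher). In 201 genes the hairpin effect had opposite signs in the 2 states (136 lower, 65 higher), and 12 genes were called in neither state. Of the 13758 genes without a called interaction, 4912 were called in both states, all in the same direction, 1599 in mESCs only, 2249 after RA only and 4998 in neither. A missed threshold in 1 state does not show that the difference was absent there. Single libraries moved the class sizes: without RA shMed12 2 the after-RA class held 325 genes, the wider class 187 and the opposite class 131, and without RA shNMC 2 the after-RA class held 303 and the opposite class 133. The wider class held 198 to 202 genes without mESC shMed12 1, mESC shMed12 2 or mESC shNMC 3, and 188 without mESC shNMC 1.

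**Figure D1:**
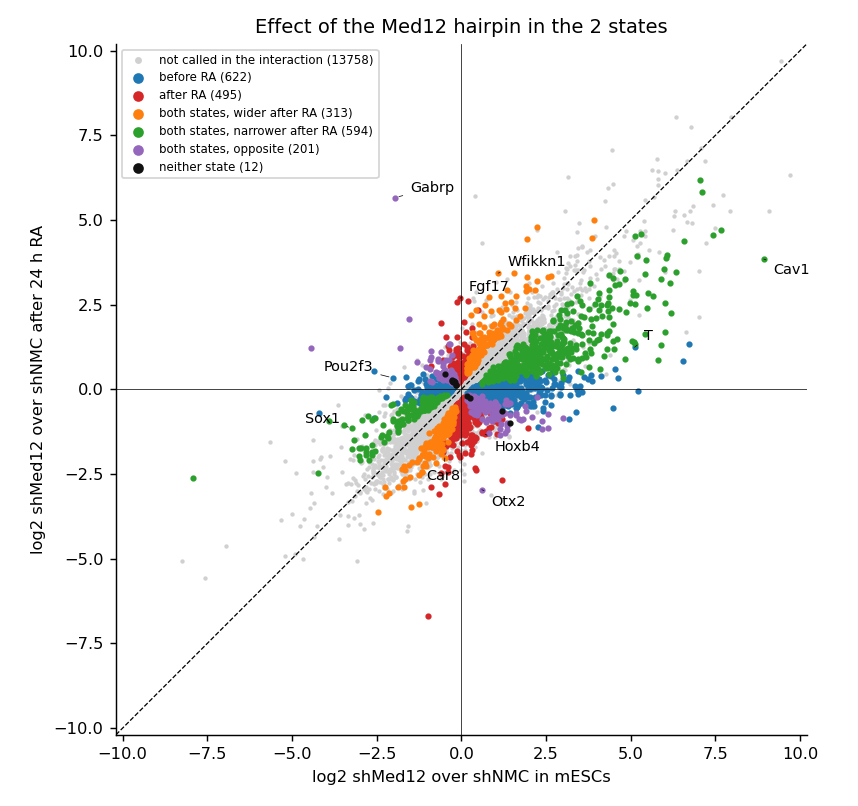
Each point is a gene, with its log2 shMed12 over shNMC in mESCs on the x axis and after 24 h of RA on the y axis. Colours mark the classes of the 2237 genes called in the interaction, grey the other 13758, and genes on the dashed line have an interaction of 0; of the 594 green genes of the narrower class, 478 lie below the line on the right and 116 above it on the left.

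The RA response of the genes was taken from the shCdk8 cells, whose 6 libraries are not part of the interaction. Of 15656 genes tested there, 2543 were RA-induced (16.2%) and 672 RA-repressed (4.29%), each at least 2-fold. Among the 2483 RA-induced genes that the interaction tested, 744 had a lower interaction (30.0%, against 9.55% of all genes) and 37 a higher one (1.49%, against 4.43%). Among 664 RA-repressed genes, 167 had a higher interaction (25.2%) and 27 a lower one (4.07%). The median interaction was -0.66 over RA-induced and 0.26 over RA-repressed genes. With the hairpin, 728 RA-induced genes were higher (29.3%, against 26.4% of all genes) and 794 lower after RA (32.0%, against 28.4%), shares close to those of all genes. In mESCs 1141 were higher (46.0%, against 26.9%) and 311 lower (12.5%, against 24.7%), and the median log2 effect was -0.10 after RA and 0.58 in mESCs (0.57 with genes at or under 3 reads set to that floor). Of the RA-repressed genes 182 were higher (27.4%) and 269 lower (40.5%) after RA, and 92 were higher (13.9%) and 359 lower (54.1%) in mESCs. Leaving out 1 library gave 565 to 852 RA-induced genes with a lower interaction and 23 to 46 with a higher one, where RA shMed12 2, mESC shMed12 1, mESC shMed12 2, mESC shNMC 1 and mESC shNMC 3 each gave 23 or 24.

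The libraries themselves differed in the level of RA-induced genes. RA shNMC 3 was the lowest of its group in 1393 of the 2483 RA-induced genes (56.1%, against 43.2% of all genes), with a median log2 of -0.15 from the other 2 libraries. In mESCs, mESC shNMC 2 was the lowest in 51.1% of them (median log2 -0.17), against 42.6% of all genes. For mESC shMed12 3 the share was 49.1% (-0.11), against 40.3% of all genes. After RA, RA shMed12 3 was the lowest in 47.5% (-0.09), against 37.9% of all genes. Leaving out these libraries gave 852 RA-induced genes with a lower interaction without RA shNMC 3, 640 without mESC shNMC 2, 766 without mESC shMed12 3 and 644 without RA shMed12 3.

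**Figure D2:**
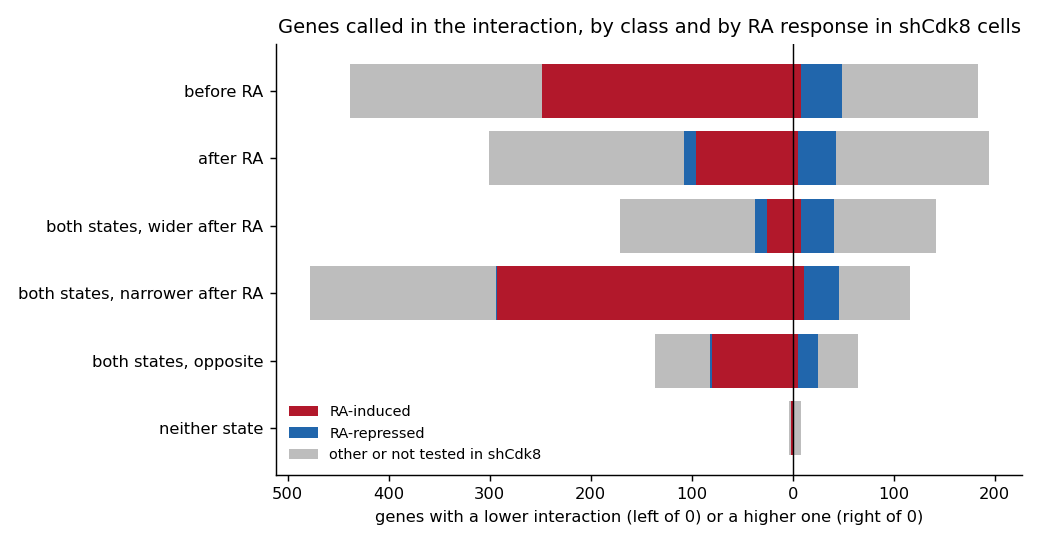
Bars give the number of genes with a lower interaction to the left of 0 and with a higher one to the right, for each class, coloured by the RA response in shCdk8 cells. RA-induced genes made 248 of the 438 lower genes of the before-RA class and 293 of the 478 of the narrower class, but 25 of the 171 of the wider class.

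The before-RA class held genes that differed with the hairpin in mESCs and missed the threshold after RA. RA-induced genes made 56.6% of its members with a lower interaction, beside 744 of the 1528 lower genes of all classes. Ms4a4d, of a family of membrane-spanning proteins, had 10.4, 10.2 and 10.4 CPM in the RA shMed12 libraries and 13.6, 14.1 and 5.34 CPM in the RA shNMC libraries. In mESCs it had 3.69, 3.74 and 2.85 CPM in the mESC shMed12 libraries and 0.229, 0.290 and 0.347 CPM in the mESC shNMC libraries, with no overlap between the groups. Ms4a4d responded to RA with log2 1.6 in shMed12 and 5.26 in shNMC cells, and the interaction was its difference (log2 -3.66, SE 0.48, edgeR adjusted p = 0.00020). Zfp703, a zinc-finger corepressor gene known to respond to RA, had 35.1, 33.5 and 39.7 CPM in the RA shMed12 libraries and 44.7, 46.4 and 26.9 CPM in the RA shNMC libraries. It had 3.77, 3.46 and 2.46 CPM in the mESC shMed12 libraries and 0.436, 0.425 and 0.396 CPM in the mESC shNMC libraries, so the hairpin line started higher in each library and the RA response was log2 3.49 against 6.54 in shNMC cells (interaction log2 -3.05, SE 0.34, edgeR adjusted p = 3.8e-05). Plau, which encodes the urokinase protease, and Cthrc1, which encodes a secreted collagen-repeat protein, had the same form. Plau differed by log2 0.19 after RA and 2.94 in mESCs (interaction log2 -2.75, SE 0.28, edgeR adjusted p = 1.7e-05), and Cthrc1 by 0.41 and 3.01 (interaction log2 -2.59, SE 0.29, edgeR adjusted p = 3.3e-05). Without RA shNMC 3 the after-RA difference passed for Ms4a4d (edgeR adjusted p = 0.012) and Zfp703 (0.025), in the direction opposite to that in mESCs. For Cthrc1 it passed without mESC shNMC 2 or 3, in the same direction as in mESCs.

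T, which encodes the mesoderm factor Brachyury, varied between libraries. Among the named genes of that class with a group mean of at least 5 CPM, T had the largest negative interaction. It had 3.45, 3.51 and 1.43 CPM in the RA shMed12 libraries and 1.21, 1.11 and 1.22 CPM in the RA shNMC libraries. In mESCs it had 18.1, 17.6 and 3.35 CPM in the mESC shMed12 libraries and 0.374, 0.328 and 0.421 CPM in the mESC shNMC libraries. The third library was the lowest of the shMed12 group in both states, yet every mESC shMed12 library was above every mESC shNMC library. T responded to RA with log2 -2.21 in shMed12 and 1.66 in shNMC cells (interaction log2 -3.87, SE 0.87, edgeR adjusted p = 0.011). Without mESC shMed12 3 or RA shMed12 3 the after-RA difference of T passed as well, and T then belonged to the narrower class.

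The named genes of the before-RA class with a higher interaction were lower with the hairpin in mESCs. Pou2f3, a POU-domain transcription factor gene, had 2.22, 2.52 and 2.07 CPM in the RA shMed12 libraries and 1.87, 1.49 and 2.02 CPM in the RA shNMC libraries. It had 3.56, 4.05 and 2.85 CPM in the mESC shMed12 libraries and 12.5, 16.8 and 13.2 CPM in the mESC shNMC libraries, a difference of log2 -2.03, and the RA response was -0.61 in shMed12 and -2.98 in shNMC cells (interaction log2 2.37, SE 0.24, edgeR adjusted p = 1.7e-05). The growth factor gene Fgf10 had an interaction of 1.99 (SE 0.29, edgeR adjusted p = 0.00034) with an effect of 0.36 after RA and -1.62 in mESCs. For the homeobox gene Dmbx1 the interaction was 1.6, with 0.12 after RA and -1.48 in mESCs. Stmn3, of the stathmin family that destabilises microtubules, had an interaction of 1.53. Rapgef3, which encodes the cAMP sensor Epac1, had one of 1.58, and without RA shNMC 3 its after-RA difference passed with a sign opposite to that in mESCs (edgeR adjusted p = 0.0069).

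The after-RA class held genes that did not differ by the test in mESCs. Fgf17, an FGF ligand gene of the early embryo, had 6.64, 7.44 and 5.47 CPM in the RA shMed12 libraries and 1.06, 1.09 and 0.863 CPM in the RA shNMC libraries. It had 13.6, 12.3 and 10.2 CPM in the mESC shMed12 libraries and 10.8, 15 and 11.2 CPM in the mESC shNMC libraries, where the 2 groups overlapped. Fgf17 responded to RA with log2 -0.88 in shMed12 and -3.62 in shNMC cells (interaction log2 2.73, SE 0.24, edgeR adjusted p = 5.9e-06). The connexin gene Gjb5 had the same pattern, with 11.8, 14.1 and 10.4 CPM in the RA shMed12 libraries and 3.61, 2.97 and 2.49 CPM in the RA shNMC libraries. It had 18.3, 15.7 and 19.0 CPM in the mESC shMed12 libraries and 15.5, 16.9 and 17.9 CPM in the mESC shNMC libraries (interaction log2 1.93, SE 0.20, edgeR adjusted p = 1.7e-05). Cdk6, which encodes a G1 cyclin-dependent kinase, had an interaction of 1.52 (edgeR adjusted p = 0.00020), and its mESC effect of 0.30 missed the threshold (edgeR adjusted p = 0.089), which it passed without RA shNMC 1 or RA shNMC 3. Art1, an ADP-ribosyltransferase gene, had an RA response of log2 2.36 in shMed12 and 0.66 in shNMC cells (interaction log2 1.69, SE 0.27, edgeR adjusted p = 0.00060). Without mESC shMed12 3 the mESC effect of Art1 passed, with a sign opposite to that after RA.

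Among genes of the after-RA class with a lower interaction, the homeobox genes Hoxb4, Hoxb13 and Hoxa5 were RA-induced, and are given with the Hox clusters below. Myb, a transcription factor gene, had 1.95, 1.79 and 1.79 CPM in the RA shMed12 libraries and 4.85, 5.08 and 6.15 CPM in the RA shNMC libraries. It had 12.5, 14.3 and 14 CPM in the mESC shMed12 libraries and 11.8, 11.5 and 12.8 CPM in the mESC shNMC libraries, so its RA response was log2 -2.88 in shMed12 and -1.17 in shNMC cells (interaction log2 -1.72, SE 0.17, edgeR adjusted p = 1.3e-05). Insm1, a zinc-finger factor gene of neuroendocrine development, had 2.26, 1.72 and 3.18 CPM in the RA shMed12 libraries and 7.11, 7.38 and 2.98 CPM in the RA shNMC libraries. In mESCs the Insm1 effect was log2 0.62 and did not pass (interaction log2 -1.91, SE 0.43, edgeR adjusted p = 0.0084). The third RA shNMC library of Insm1 lay within the range of the RA shMed12 libraries, and without it the mESC effect passed, with a sign opposite to that after RA (edgeR adjusted p = 0.023).

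**Figure D3:**
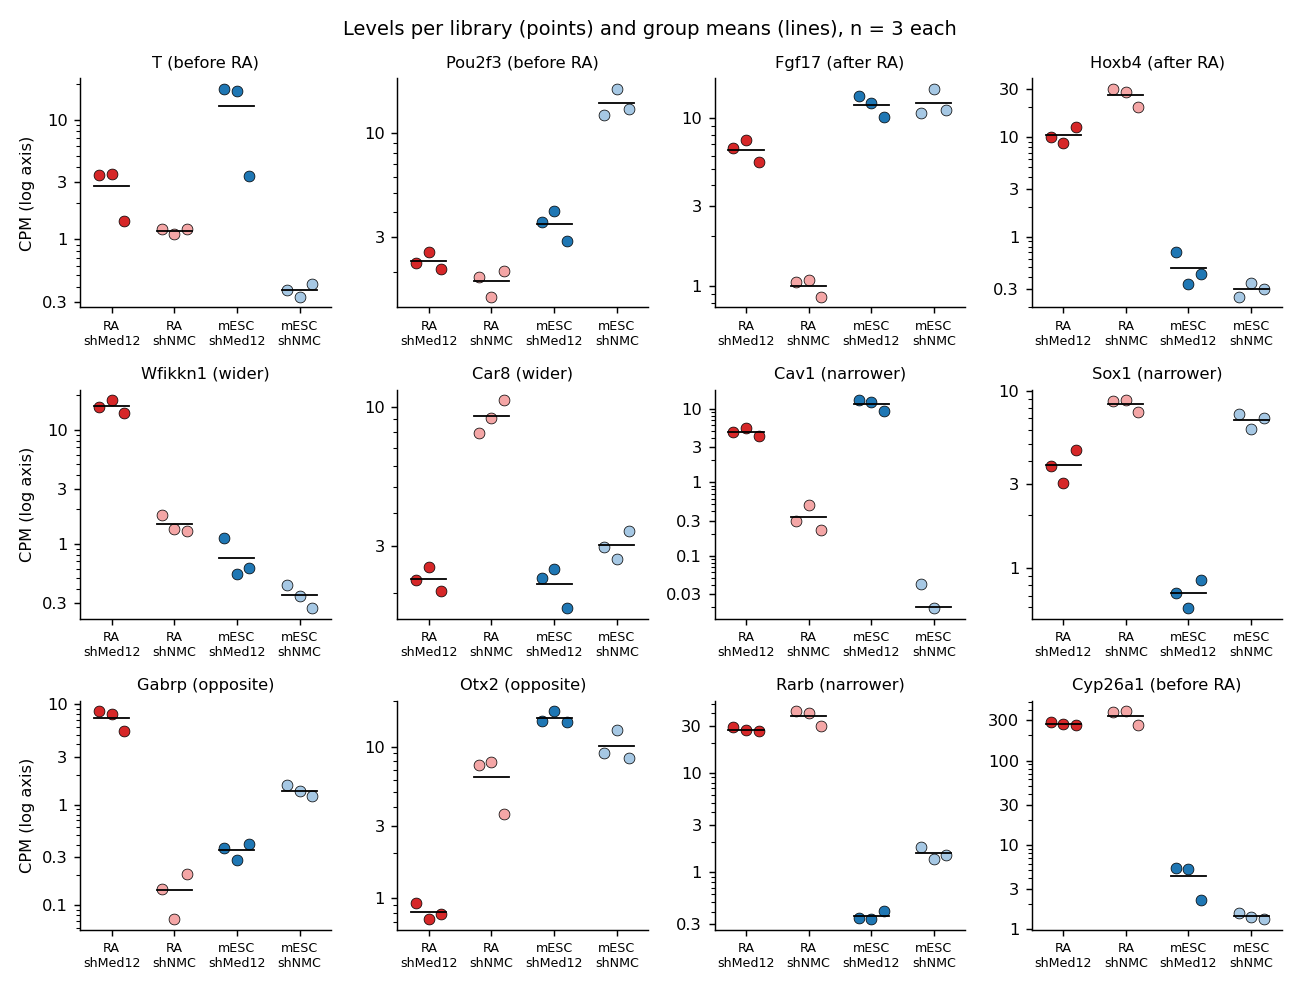
Levels of 12 genes in CPM on log axes, with a point for each library and a line for the mean of each group of 3; the class of each gene is in its title and wider, narrower and opposite are classes called in both states. Gabrp lies at 5.38 to 8.55 CPM in the RA shMed12 libraries and under 2 CPM in all others, and 1 mESC shNMC library of Cav1 at 0 is not drawn.

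The narrower class was the second in size and the one with the highest share of RA-induced genes among its lower members (61.3%). Over all classes they made 744 of the 1528 lower genes. Cav1, which encodes the caveolae protein caveolin-1, had 4.85, 5.54 and 4.25 CPM in the RA shMed12 libraries and 0.293, 0.490 and 0.225 CPM in the RA shNMC libraries. In mESCs it had 13.2, 12.5 and 9.37 CPM in the mESC shMed12 libraries and 0.0415, 0.0193 and 0 CPM in the mESC shNMC libraries. Cav1 had 1510 reads over the mESC shMed12 libraries and 3 over the mESC shNMC libraries, 539.3 times as much (95% interval for counting error only, 184.2 to 2618), so the size of its interaction (log2 -5.08, SE 0.62, edgeR adjusted p = 7.8e-05) depends on the prior count. Bgn, which encodes the matrix proteoglycan biglycan, had 9.50, 11.9 and 7.43 CPM in the RA shMed12 libraries and 3.72, 4.26 and 2.64 CPM in the RA shNMC libraries. It had 13.8, 12 and 7.77 CPM in the mESC shMed12 libraries and 0.602, 0.309 and 0.619 CPM in the mESC shNMC libraries, so the hairpin line was higher in each state, and the RA response was log2 -0.22 in shMed12 and 2.81 in shNMC cells (interaction log2 -3.03, SE 0.39, edgeR adjusted p = 0.00015). Ccrl1, which encodes an atypical chemokine receptor, differed by log2 0.62 after RA and 4.10 in mESCs (interaction log2 -3.48, SE 0.43, edgeR adjusted p = 8.4e-05). The casein gene Csn3 differed by 0.97 and 4.22 (interaction log2 -3.24, SE 0.63, edgeR adjusted p = 0.0027), and Ido2, which encodes a tryptophan-degrading enzyme, by 1.5 and 4.60 (interaction log2 -3.10, SE 0.36, edgeR adjusted p = 5.3e-05).

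By the definition of the class, members of the narrower class with a higher interaction were lower with the hairpin in both states. Sox1, a neural transcription factor gene, had 3.78, 3.02 and 4.65 CPM in the RA shMed12 libraries and 8.81, 8.90 and 7.61 CPM in the RA shNMC libraries. It had 0.721, 0.594 and 0.854 CPM in the mESC shMed12 libraries and 7.46, 6.12 and 7.01 CPM in the mESC shNMC libraries, so the shMed12 libraries were lower in both states and nearer to the shNMC libraries after RA (interaction log2 2.08, SE 0.25, edgeR adjusted p = 6.7e-05). Mapt, which encodes the microtubule protein tau, had 10.5, 8.80 and 9.06 CPM in the RA shMed12 libraries and 16.3, 14.8 and 19.5 CPM in the RA shNMC libraries. It had 11.1, 9.63 and 12.4 CPM in the mESC shMed12 libraries and 64.2, 62.4 and 66.0 CPM in the mESC shNMC libraries (interaction log2 1.70, SE 0.16, edgeR adjusted p = 9.6e-06). The calcium pump gene Atp2a3 had an interaction of 1.71 (edgeR adjusted p = 7.6e-05), and Shisa2, which encodes an inhibitor of Wnt and FGF receptors, one of 1.49 (edgeR adjusted p = 9.2e-05). Rarb, described with its promoter, is of the same kind.

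The wider class held genes whose hairpin effect grew after RA. Ddx58, which encodes the RNA sensor RIG-I, had 43.6, 40.1 and 39.5 CPM in the RA shMed12 libraries and 8.92, 8.76 and 8.98 CPM in the RA shNMC libraries. It had 95.8, 98.8 and 93.4 CPM in the mESC shMed12 libraries and 76.1, 85.9 and 73.1 CPM in the mESC shNMC libraries. All shMed12 libraries of Ddx58 were above all shNMC libraries of the same state, by log2 2.21 after RA and 0.29 in mESCs (interaction log2 1.92, SE 0.11, edgeR adjusted p = 7.7e-08). Tgm1, a transglutaminase gene of epithelia, had 60.0, 67.3 and 66.3 CPM in the RA shMed12 libraries and 10.9, 10.2 and 8.21 CPM in the RA shNMC libraries. It had 52.8, 53.4 and 54.3 CPM in the mESC shMed12 libraries and 26.5, 32.6 and 31.6 CPM in the mESC shNMC libraries, and its RA response was log2 0.27 in shMed12 and -1.63 in shNMC cells (interaction log2 1.90, SE 0.14, edgeR adjusted p = 1.4e-06). Hspb8, a small heat shock protein gene, had effects of 2.35 after RA and 0.45 in mESCs (interaction log2 1.90, SE 0.18, edgeR adjusted p = 1.3e-05). Wfikkn1, which encodes a secreted binder of GDF8 and GDF11, had 15.8, 18.1 and 14 CPM in the RA shMed12 libraries and 1.79, 1.34 and 1.29 CPM in the RA shNMC libraries. It had 1.12, 0.542 and 0.610 CPM in the mESC shMed12 libraries and 0.436, 0.348 and 0.272 CPM in the mESC shNMC libraries (interaction log2 2.35, SE 0.39, edgeR adjusted p = 0.00084), and without mESC shMed12 1 its mESC effect did not pass (edgeR adjusted p = 0.070). Fgfbp3, which encodes an FGF-binding protein, had an interaction of 1.89 that did not pass without mESC shNMC 1 or 3 (edgeR adjusted p = 0.060 and 0.066).

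By the definition of the class, members of the wider class with a lower interaction were lower with the hairpin in both states. Gca, which encodes the calcium-binding protein grancalcin, had 37.1, 36.8 and 38.5 CPM in the RA shMed12 libraries and 114, 124 and 143 CPM in the RA shNMC libraries. It had 38.7, 39.6 and 41.3 CPM in the mESC shMed12 libraries and 61.1, 53.6 and 58.0 CPM in the mESC shNMC libraries, and its RA response was log2 -0.09 in shMed12 and 1.14 in shNMC cells (interaction log2 -1.23, SE 0.12, edgeR adjusted p = 9.6e-06). Car8, of the carbonic anhydrase family, had 2.24, 2.50 and 2.04 CPM in the RA shMed12 libraries and 7.98, 9.05 and 10.6 CPM in the RA shNMC libraries. It had 2.28, 2.45 and 1.75 CPM in the mESC shMed12 libraries and 2.97, 2.68 and 3.42 CPM in the mESC shNMC libraries (interaction log2 -1.54, SE 0.23, edgeR adjusted p = 0.00040), and its mESC effect did not pass without mESC shMed12 3, mESC shNMC 1 or mESC shNMC 3. The phosphatase gene Ptpn20 had an interaction of -1.45 (edgeR adjusted p = 0.0018) and the reductase gene Cyb5r2 one of -1.25 (edgeR adjusted p = 0.0018). The mESC effect of Cyb5r2 did not pass without mESC shNMC 1 or 3. The proton pump gene Atp12a had one of -1.27 (edgeR adjusted p = 0.031) that was lost without any 1 of 5 libraries, RA shMed12 2, RA shMed12 3, RA shNMC 2, mESC shMed12 3 and mESC shNMC 1 (edgeR adjusted p = 0.051 to 0.076), and in the fit over 24 libraries.

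In the opposite class the hairpin effect changed sign between the states. Gabrp, which encodes the pi subunit of the GABA-A receptor, had 8.55, 7.93 and 5.38 CPM in the RA shMed12 libraries and 0.146, 0.0725 and 0.206 CPM in the RA shNMC libraries. It had 0.372, 0.284 and 0.407 CPM in the mESC shMed12 libraries and 1.56, 1.37 and 1.21 CPM in the mESC shNMC libraries. The Gabrp groups did not overlap in either state: RA shMed12 libraries were the highest of all 12 and RA shNMC libraries the lowest. Gabrp had an RA response of log2 4.34 in shMed12 and -3.27 in shNMC cells, and its interaction was the largest among the named genes (log2 7.61, SE 0.40, edgeR adjusted p = 6.6e-08). Gna14, a G protein alpha subunit gene, had 1.25, 0.941 and 0.965 CPM in the RA shMed12 libraries and 0.476, 0.490 and 0.375 CPM in the RA shNMC libraries. It had 2.39, 2.48 and 2.32 CPM in the mESC shMed12 libraries and 9.10, 6.28 and 9.81 CPM in the mESC shNMC libraries, so the hairpin line was higher after RA and lower in mESCs (interaction log2 3.03, SE 0.29, edgeR adjusted p = 1.2e-05). The neurogenic factor gene Neurod1 had effects of 0.80 after RA and -1.32 in mESCs (interaction log2 2.12, SE 0.31, edgeR adjusted p = 0.00035), the sulfate transporter gene Slc13a4 of 0.94 and -0.90 (interaction log2 1.84, SE 0.27, edgeR adjusted p = 0.00029), and Tcfeb, which encodes the lysosomal regulator TFEB, of 1.35 and -0.35 (interaction log2 1.70, SE 0.16, edgeR adjusted p = 8.8e-06). The mESC effect of Tcfeb did not pass without mESC shMed12 2 (edgeR adjusted p = 0.068), and in the fit over 24 libraries the mESC effect of Tcfeb and the after-RA effect of Neurod1 did not pass.

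Otx2, a homeobox gene of the primed state and the anterior head, had the largest negative interaction among the named genes of that class. It had 0.935, 0.728 and 0.786 CPM in the RA shMed12 libraries and 7.53, 7.89 and 3.62 CPM in the RA shNMC libraries. In mESCs it had 14.8, 17.1 and 14.5 CPM in the mESC shMed12 libraries and 9.10, 12.9 and 8.39 CPM in the mESC shNMC libraries. Otx2 responded to RA with log2 -4.24 in shMed12 and -0.68 in shNMC cells (interaction log2 -3.56, SE 0.36, edgeR adjusted p = 2.1e-05). Its mESC effect (0.61, edgeR adjusted p = 0.035) did not pass without mESC shMed12 1, mESC shMed12 2, mESC shNMC 1 or mESC shNMC 3. Foxi3, a forkhead factor gene, had 2.84, 2.86 and 3.72 CPM in the RA shMed12 libraries and 5.38, 5.04 and 5.10 CPM in the RA shNMC libraries. It had 7.23, 7.05 and 8.01 CPM in the mESC shMed12 libraries and 1.10, 1.31 and 1.34 CPM in the mESC shNMC libraries, with no overlap in either state (interaction log2 -3.29, SE 0.20, edgeR adjusted p = 1.6e-07). Greb1l had 115, 99.9 and 134 CPM in the RA shMed12 libraries and 140, 137 and 132 CPM in the RA shNMC libraries. It had 33.9, 34.2 and 33.0 CPM in the mESC shMed12 libraries and 7.77, 6.39 and 7.48 CPM in the mESC shNMC libraries, and its interaction was -2.45 (SE 0.14, edgeR adjusted p = 7.9e-08), while its after-RA effect of -0.23 passed narrowly (edgeR adjusted p = 0.048) and was lost without any 1 of 9 of the 12 libraries. The translation factor variant gene Eif4e1b had an interaction of -2.33 (edgeR adjusted p = 6.9e-05) and the adenylate kinase gene Ak5 one of -2.09 (edgeR adjusted p = 0.00032). The mESC effect of Ak5 did not pass without mESC shMed12 1 or mESC shNMC 2.

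In the 12 genes called in neither state, each effect missed its threshold and their difference passed. Those that the rule names were Hps4, Ttc38, Sipa1l1, Ccnf and Ppil2, with interactions of 0.28 to 0.55, and Fhdc1 and Tiprl, with -0.50 and -0.36. Each of these 7 calls was lost without at least 8 of the 12 libraries taken singly.

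Of the Hox genes, 37 of the 52 on the list were tested. Of these, 9 had a lower interaction and 0 a higher one at the edgeR threshold, beside 9.55% and 4.43% of all genes, and 28 were not called. The median interaction was -0.62, or -0.80 with the 3 members at or under 3 reads in a group set to that floor, and the median log2 effect was -0.74 after RA and 0.10 in mESCs. After RA 21 members were lower with the hairpin and 2 higher, beside 28.4% and 26.4% of all genes. In mESCs 9 were lower and 6 higher, beside 24.7% and 26.9% of all genes, so the lower count there was near the share of all genes. The fit over 24 libraries left 3 Hox genes with a lower interaction. Hoxb4 had 9.95, 8.70 and 12.7 CPM in the RA shMed12 libraries and 30.4, 28.2 and 20.1 CPM in the RA shNMC libraries. It had 0.697, 0.336 and 0.427 CPM in the mESC shMed12 libraries and 0.249, 0.348 and 0.297 CPM in the mESC shNMC libraries (interaction log2 -2.03, SE 0.42, edgeR adjusted p = 0.0040). The RA response of Hoxb4 was log2 4.41 in shMed12 and 6.44 in shNMC cells, and the 2 groups did not overlap after RA. Hoxb13 had 2.84, 3.53 and 2.75 CPM in the RA shMed12 libraries and 10.4, 11.8 and 14.3 CPM in the RA shNMC libraries. It had 1.05, 1.03 and 0.813 CPM in the mESC shMed12 libraries and 1.06, 1.10 and 0.768 CPM in the mESC shNMC libraries (interaction log2 -1.96, SE 0.27, edgeR adjusted p = 0.00020). Hoxa3, Hoxa10 and Hoxd8, which like these were called only after RA, had interactions of -1.2, -1.37 and -1.5, and the call of Hoxa10 was lost without any 1 of 4 libraries. Hoxa5 had one of -1.91 (edgeR adjusted p = 0.026) that was lost without mESC shMed12 1, mESC shMed12 2 or any mESC shNMC library (edgeR adjusted p = 0.051 to 0.15). In the fit over 24 libraries the calls of Hoxa3, Hoxa5, Hoxa10 and Hoxd8 were lost, as was that of Hoxd9 given below. The mESC effect passed with a sign opposite to that after RA for Hoxd8 without RA shMed12 3 or mESC shMed12 3, and for Hoxa5 without mESC shMed12 3. The strand setting of the counting is not given in the sources used here, so reads of Hox genes and their antisense neighbours cannot be told apart.

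Other called Hox genes differed in mESCs and missed the threshold after RA. Hoxd9 had group means of 3.92 CPM in RA shMed12, 2.82 CPM in RA shNMC, 2.21 CPM in mESC shMed12 and 0.349 CPM in mESC shNMC cells (interaction log2 -2.19, SE 0.51, edgeR adjusted p = 0.010), and Hoxd10 had 0.606 CPM in RA shMed12, 0.779 CPM in RA shNMC, 0.582 CPM in mESC shMed12 and 0.132 CPM in mESC shNMC cells (interaction log2 -2.49, SE 0.43, edgeR adjusted p = 0.0013). Hoxb1, the standard early RA target of the HoxB cluster, had 36.1, 32.1 and 40.0 CPM in the RA shMed12 libraries and 48.1, 43.9 and 21.7 CPM in the RA shNMC libraries , which overlapped. It had 0.186, 0.129 and 0.122 CPM in the mESC shMed12 libraries and 0.0415, 0.174 and 0.149 CPM in the mESC shNMC libraries and was not called (interaction log2 -0.33, SE 0.91, edgeR adjusted p = 0.85).

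**Figure D4:**
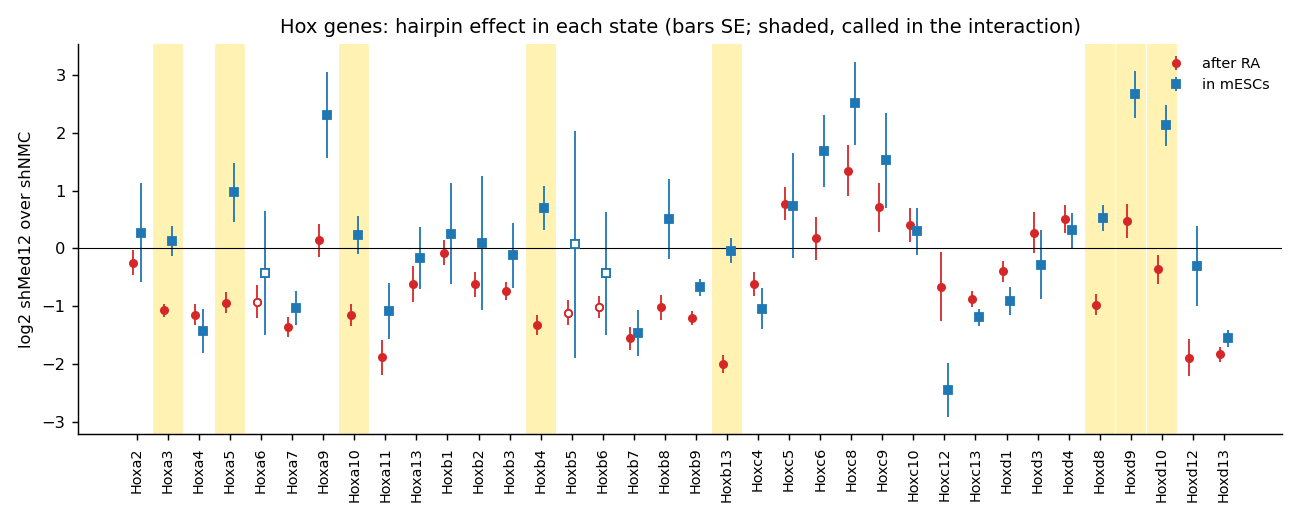
The log2 effect of the Med12 hairpin for the Hox genes reported here, after RA (circles) and in mESCs (squares), with bars of 1 SE. Shaded genes were called in the interaction and open symbols mark Hoxa6, Hoxb5 and Hoxb6, which had 3 reads or fewer in a group; red points after RA lie mostly below 0, 21 of them called lower, and blue points in mESCs lie on both sides.

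Retinoid genes moved in both directions. Of 14 tested genes of retinoid metabolism and binding, 2 had a higher and 4 a lower interaction (median -0.25), beside 4.43% and 9.55% of all genes. Stra6, which encodes the retinol uptake receptor, had 21.3, 19.6 and 24.4 CPM in the RA shMed12 libraries and 31.1, 29.2 and 20.4 CPM in the RA shNMC libraries. It had 0.721, 0.619 and 0.468 CPM in the mESC shMed12 libraries and 1.52, 2.51 and 1.63 CPM in the mESC shNMC libraries (interaction log2 1.36, SE 0.32, edgeR adjusted p = 0.010), so it differed in mESCs, and without RA shNMC 3 its after-RA difference passed too. Lrat, which encodes the enzyme that stores retinol as esters, had 1.99, 1.49 and 1.98 CPM in the RA shMed12 libraries and 4.34, 3.68 and 4.52 CPM in the RA shNMC libraries. It had 0.558, 0.645 and 0.651 CPM in the mESC shMed12 libraries and 0.644, 0.541 and 0.817 CPM in the mESC shNMC libraries (interaction log2 -1.10, SE 0.28, edgeR adjusted p = 0.017), where the mESC groups overlapped. The retinol dehydrogenase gene Rdh11 had an interaction of 0.59, and Dhrs3, which encodes an enzyme that turns retinal back to retinol, one of -0.58, a call lost without any 1 of 9 libraries. The interactions of Stra6, Rdh11 and Dhrs3 did not pass in the fit over 24 libraries. Aldh1a1, which encodes an RA-producing enzyme, was called lower but had no read in mESC shNMC cells, so no fold is given. Its call was lost without any 1 of 6 libraries and in the fit over 24 libraries. The list held 4 lower members in all 12 libraries and 2 without RA shMed12 2, RA shNMC 2, mESC shMed12 2 or mESC shNMC 2. Among the 6 receptor genes Rarb was higher and Rxrg lower (-1.12). The call of Rxrg was lost without any 1 of 7 libraries, in the fit over 24 libraries and by the DESeq2 Wald test (adjusted p = 0.056).

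Of 19 tested RA response genes, 3 had a higher and 3 a lower interaction, beside 4.43% and 9.55% of all genes. The lower count was 7 without RA shNMC 3 and 5 without mESC shMed12 3. Stra8, the RA-induced gatekeeper of meiosis, had 355, 332 and 408 CPM in the RA shMed12 libraries and 1413, 1293 and 974 CPM in the RA shNMC libraries. It had 6.67, 6.04 and 10.7 CPM in the mESC shMed12 libraries and 81.0, 61.6 and 78.5 CPM in the mESC shNMC libraries, so every shMed12 library was lower in both states, by log2 -1.75 after RA and -3.23 in mESCs (interaction log2 1.48, SE 0.27, edgeR adjusted p = 0.0025). Cdx1, a posterior homeobox gene and direct RA target, had 88.9, 102 and 85.6 CPM in the RA shMed12 libraries and 60.3, 60.5 and 74.9 CPM in the RA shNMC libraries. It had 5.88, 5.24 and 4.21 CPM in the mESC shMed12 libraries and 7.62, 6.45 and 8.77 CPM in the mESC shNMC libraries, with opposite effects in the 2 states (interaction log2 1.07, SE 0.19, edgeR adjusted p = 0.0014). Ret, which encodes a receptor tyrosine kinase, had an interaction of -0.98 (edgeR adjusted p = 0.00089) with effects of -0.39 after RA and 0.59 in mESCs. Pbx3, a Hox cofactor gene, had one of -0.72 and the adaptor gene Skap2 one of 0.45.

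Pluripotency genes were mostly lower with the hairpin in both states (22 of 35 after RA and 23 in mESCs, beside 28.4% and 24.7% of all genes). In the interaction 9 were higher and 6 lower (median -0.07), beside 4.43% and 9.55% of all genes. Sox2 had 146, 153 and 158 CPM in the RA shMed12 libraries and 470, 491 and 475 CPM in the RA shNMC libraries. It had 433, 457 and 436 CPM in the mESC shMed12 libraries and 821, 813 and 771 CPM in the mESC shNMC libraries, so its deficit was log2 -1.65 after RA and -0.86 in mESCs (interaction log2 -0.79, SE 0.09, edgeR adjusted p = 3.3e-05). Tdh, which encodes the threonine-degrading enzyme of naive cells, had 26.2, 27.4 and 22.4 CPM in the RA shMed12 libraries and 9.23, 8.40 and 12.3 CPM in the RA shNMC libraries. It had 252, 245 and 232 CPM in the mESC shMed12 libraries and 271, 366 and 277 CPM in the mESC shNMC libraries, with an interaction of 1.67 (edgeR adjusted p = 4.6e-05). The mESC effect of Tdh (-0.33) passed narrowly and was lost without any 1 of 6 libraries. Tet2, which encodes a 5-methylcytosine oxidase, had effects of -1.08 after RA and -1.84 in mESCs (interaction log2 0.76, SE 0.12, edgeR adjusted p = 0.00056). Nanog and Pou5f1 were not called in the interaction (0.16 and -0.23), and Zfp42 was called at -0.35 with a call lost in 10 of the 12 fits that leave out a library.

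Primed-state genes had 9 lower and 0 higher interactions among 17 tested, beside 9.55% and 4.43% of all genes (median -0.62, with medians of 0.12 after RA and 0.69 in mESCs). Besides Otx2 they included Pou3f1, which encodes the POU factor Oct6, with 7.05, 8.59 and 7.36 CPM in the RA shMed12 libraries and 3.63, 4.13 and 3.86 CPM in the RA shNMC libraries. It had 15.9, 16.3 and 12.9 CPM in the mESC shMed12 libraries and 4.46, 3.53 and 3.84 CPM in the mESC shNMC libraries (interaction log2 -0.94, SE 0.19, edgeR adjusted p = 0.0032). The methyltransferase gene Dnmt3a had effects of -0.35 after RA and 0.27 in mESCs (interaction log2 -0.62, SE 0.12, edgeR adjusted p = 0.0030). Sfrp2, a secreted Wnt inhibitor gene, had 0.09 and 0.77 (interaction log2 -0.69, SE 0.12, edgeR adjusted p = 0.0011), a call lost in the fit over 24 libraries. The list count was 5 without RA shMed12 2, RA shNMC 1, mESC shMed12 2 or mESC shNMC 3, and 3 in the fit over 24 libraries. The mESC effect of Dnmt3a was lost without mESC shMed12 3 or mESC shNMC 2.

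Trophectoderm genes were mostly higher with the hairpin in both states (16 of 18 tested after RA and 14 in mESCs, beside 26.4% and 26.9% of all genes). The interaction was lower in 9 and higher in 1, beside 9.55% and 4.43% of all genes (median interaction -0.85, median effects 2.0 after RA and 3.29 in mESCs). Hand1, a trophoblast and heart factor gene, had 9.93, 11 and 9.10 CPM in the RA shMed12 libraries and 0.696, 0.617 and 0.581 CPM in the RA shNMC libraries. It had 18.9, 17.2 and 15 CPM in the mESC shMed12 libraries and 0.249, 0.154 and 0.371 CPM in the mESC shNMC libraries, so it was higher with the hairpin in each state, and its RA response was log2 -0.77 in shMed12 and 1.32 in shNMC cells (interaction log2 -2.09, SE 0.30, edgeR adjusted p = 0.00029). Eomes, a T-box factor gene of trophoblast and mesoderm, had 17.3, 17.5 and 16.5 CPM in the RA shMed12 libraries and 13.2, 13.1 and 12.4 CPM in the RA shNMC libraries. It had 28.8, 30.0 and 21.7 CPM in the mESC shMed12 libraries and 6.31, 5.21 and 5.84 CPM in the mESC shNMC libraries (interaction log2 -1.80, SE 0.16, edgeR adjusted p = 8.1e-06). Fgfr2, the FGF4 receptor gene of trophoblast, had 70.8, 67.8 and 70.9 CPM in the RA shMed12 libraries and 46.9, 47.0 and 34.6 CPM in the RA shNMC libraries. It had 65.7, 65.0 and 62.5 CPM in the mESC shMed12 libraries and 10.8, 10.9 and 8.69 CPM in the mESC shNMC libraries (interaction log2 -1.96, SE 0.16, edgeR adjusted p = 2.4e-06), and Gata3, another trophoblast factor gene, had an interaction of -2.20 that did not pass in the fit over 24 libraries. The keratin genes Krt7, Krt8, Krt18 and Krt19 had interactions of -1.25, -0.72, -0.59 and -0.99. All 4 keratin calls were lost in the fit over 24 libraries, that of Krt8 also without any 1 of 5 libraries and those of Krt18 and Krt19 without any 1 of 8 each. The summed level of the 19 markers in the files was 892 to 1120 CPM in RA shMed12, 159 to 177 in RA shNMC, 763 to 945 in mESC shMed12 and 110 to 124 in mESC shNMC libraries, and Prl3d1 had no read outside mESC shMed12 cells. In bulk RNA fewer cells of a type and less RNA per cell cannot be told apart, and the part of such cells in the interaction was not tested. The list held 5 lower members without RA shNMC 2, and 3 lower and 0 higher ones in the fit over 24 libraries.

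Fibroblast and smooth muscle genes had 11 lower and 1 higher interaction among 25 tested, beside 9.55% and 4.43% of all genes. Their median effects were 1.25 after RA and 2.63 in mESCs (median interaction -0.44). Besides Cav1, Col6a1, a collagen VI chain gene, had 4.22, 5.18 and 4.24 CPM in the RA shMed12 libraries and 2.80, 2.70 and 1.73 CPM in the RA shNMC libraries. It had 3.28, 3.30 and 3.13 CPM in the mESC shMed12 libraries and 0.353, 0.232 and 0.223 CPM in the mESC shNMC libraries (interaction log2 -2.65, SE 0.31, edgeR adjusted p = 5.8e-05). Cnn1, which encodes smooth muscle calponin, had 16.8, 17.4 and 14.1 CPM in the RA shMed12 libraries and 9.17, 8.49 and 7.24 CPM in the RA shNMC libraries. It had 11.6, 10.1 and 9.05 CPM in the mESC shMed12 libraries and 1.81, 1.99 and 2.40 CPM in the mESC shNMC libraries (interaction log2 -1.36, SE 0.20, edgeR adjusted p = 0.00033). Myl9, Cav2, Col1a1 and Tagln had interactions of -1.57, -3.09, -1.46 and -0.86, and the call of Tagln was lost in the fit over 24 libraries. The higher member was Pdgfra, a PDGF receptor gene, with effects of -1.04 after RA and -2.31 in mESCs (interaction log2 1.27, SE 0.18, edgeR adjusted p = 0.00022), a call lost in the fit over 24 libraries. The 26 markers summed to 2840 to 3010 CPM in RA shMed12, 1890 to 2710 in RA shNMC, 3440 to 3600 in mESC shMed12 and 2680 to 3170 in mESC shNMC libraries, and Lum had no read in either shNMC group. The part of such cells in the interaction was not tested.

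Other lineage lists were mixed, and their counts stand beside 4.43% of all genes with a higher and 9.55% with a lower interaction. Of 13 neural genes tested, 2 were higher and 3 lower in the interaction, led by Sox1, Neurod1 and Pax3. Pax3, a dorsal neural and neural crest factor gene, had 2.75, 2.18 and 1.97 CPM in the RA shMed12 libraries and 0.842, 1.29 and 0.900 CPM in the RA shNMC libraries. It had 1.07, 0.697 and 0.874 CPM in the mESC shMed12 libraries and 0.0415, 0.0386 and 0.0495 CPM in the mESC shNMC libraries (interaction log2 -3.11, SE 0.49, edgeR adjusted p = 0.00062). In the mESC shNMC libraries 3 reads stand for 0.0579 to 0.0743 CPM, so Pax3 had fewer than 3 reads in each, and the size of its interaction is uncertain. Nes, which encodes nestin, had an interaction of -0.84, lost in the fit over 24 libraries. Of 14 primitive streak and mesoderm genes, 2 were higher and 4 lower. Wnt3 and Wnt3a, genes of closely related Wnt ligands, had interactions of opposite sign. Wnt3 had 7.01, 8.22 and 5.18 CPM in the RA shMed12 libraries and 1.39, 1.29 and 1.2 CPM in the RA shNMC libraries. It had 8.23, 9.24 and 4.05 CPM in the mESC shMed12 libraries and 0.311, 0.270 and 0.396 CPM in the mESC shNMC libraries, and its interaction was negative (log2 -2.07, SE 0.44, edgeR adjusted p = 0.0056). Wnt3a had 2.59, 3.09 and 3.43 CPM in the RA shMed12 libraries and 0.476, 0.580 and 0.750 CPM in the RA shNMC libraries. It had 0.442, 0.439 and 0.508 CPM in the mESC shMed12 libraries and 0.311, 0.309 and 0.371 CPM in the mESC shNMC libraries, where the difference did not pass, and its interaction was positive (log2 1.83, SE 0.34, edgeR adjusted p = 0.0019). Bmp4, a BMP ligand gene, had an interaction of 0.93, lost in the fit over 24 libraries.

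Of 24 extraembryonic endoderm genes, 4 were higher and 3 lower, beside 4.43% and 9.55% of all genes. Apoe, which encodes apolipoprotein E, had effects of 1.17 after RA and 0.25 in mESCs (interaction log2 0.92, SE 0.16, edgeR adjusted p = 0.0010), and Plat, which encodes tissue plasminogen activator, 0.91 and 2.42 (interaction log2 -1.51, SE 0.28, edgeR adjusted p = 0.0020). The collagen IV genes Col4a1 and Col4a2 had interactions of -0.46 and -0.55. These 4 calls were lost in the fit over 24 libraries, the higher count was 1 or 2 without RA shMed12 2, RA shNMC 2, mESC shMed12 1, mESC shMed12 2 or mESC shNMC 2, and Gata6 was not called (0.32). Of 20 germline genes, 8 were lower and 0 higher in the interaction, beside 9.55% and 4.43% of all genes, and none of the 20 was called in the fit over 24 libraries. With the hairpin 17 were lower after RA and 15 in mESCs, beside 28.4% and 24.7% of all genes. Dazl, an RNA-binding protein gene of germ cells, had 23.7, 19.9 and 20.3 CPM in the RA shMed12 libraries and 100, 102 and 80.9 CPM in the RA shNMC libraries. It had 14.3, 14.6 and 11.1 CPM in the mESC shMed12 libraries and 38.1, 30.7 and 30.8 CPM in the mESC shNMC libraries, and its RA response was log2 0.68 in shMed12 and 1.51 in shNMC cells (interaction log2 -0.83, SE 0.17, edgeR adjusted p = 0.0049). Taf7l, Sycp1 and Tdrd1 had interactions of -1.14, -0.69 and -0.80. The germline count was 5 without RA shMed12 2, RA shMed12 3, RA shNMC 1, RA shNMC 2 or mESC shMed12 2. In the 2-cell-like list 1 of 16 was called, Eif1a (0.49), a call lost in the fit over 24 libraries. That list had 0 lower members with all 12 libraries, 3 without mESC shMed12 3, 2 without RA shNMC 3 and 1 without mESC shNMC 2.

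**Figure D5:**
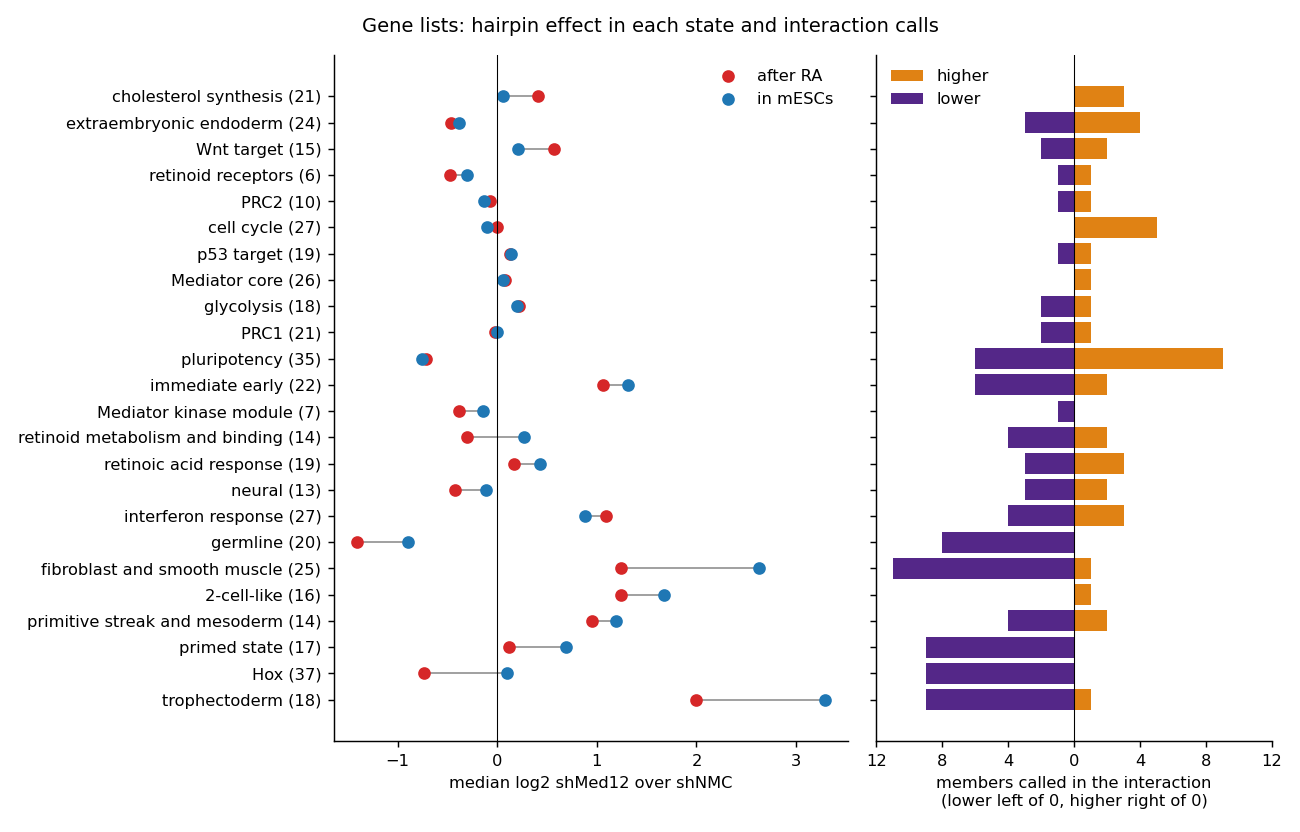
Left, the median log2 effect of the Med12 hairpin over the tested members of each list (number in brackets) after RA in red and in mESCs in blue. Right, members called in the interaction, lower to the left of 0 and higher to the right: trophectoderm, Hox, primed-state and germline lists had 8 or 9 lower members, fibroblast and smooth muscle 11, and cell cycle 5 higher ones.

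Signalling and stress lists also held both directions. Of 22 immediate early genes, 2 were higher and 6 lower, beside 4.43% and 9.55% of all genes. Junb, an AP-1 subunit gene, had 13.6, 17.7 and 13.8 CPM in the RA shMed12 libraries and 3.02, 3.06 and 2.85 CPM in the RA shNMC libraries. It had 22.7, 23.2 and 22.5 CPM in the mESC shMed12 libraries and 10.9, 9.54 and 11.4 CPM in the mESC shNMC libraries, and its RA response was log2 -0.60 in shMed12 and -1.83 in shNMC cells (interaction log2 1.23, SE 0.16, edgeR adjusted p = 0.00013). Jun, of the same family, had 33.6, 36.6 and 32.1 CPM in the RA shMed12 libraries and 24.4, 30.0 and 12.3 CPM in the RA shNMC libraries. It had 23.8, 24.8 and 17.8 CPM in the mESC shMed12 libraries and 2.62, 3.15 and 3.67 CPM in the mESC shNMC libraries (interaction log2 -2.20, SE 0.36, edgeR adjusted p = 0.0014), and its after-RA effect was lost without any 1 of 6 libraries. Myc had an interaction of 1.32 (edgeR adjusted p = 0.00016) and the zinc-finger gene Klf6 one of -1.05 (edgeR adjusted p = 0.00084). The mESC effect of Myc was lost without mESC shMed12 1, mESC shMed12 2, mESC shNMC 1 or mESC shNMC 3.

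Of 27 interferon response genes, 3 were higher and 4 lower, beside 4.43% and 9.55% of all genes. Besides Ddx58, Igtp, an interferon-induced GTPase gene, had 6.46, 5.84 and 5.34 CPM in the RA shMed12 libraries and 3.04, 2.65 and 2.61 CPM in the RA shNMC libraries. It had 2.77, 2.56 and 2.07 CPM in the mESC shMed12 libraries and 2.78, 2.38 and 3.17 CPM in the mESC shNMC libraries (interaction log2 1.26, SE 0.22, edgeR adjusted p = 0.0013). Ifih1, which encodes the related RNA sensor MDA5, had 1.77, 1.72 and 1.02 CPM in the RA shMed12 libraries and 0.604, 0.598 and 0.412 CPM in the RA shNMC libraries. It had 1.49, 1.14 and 0.732 CPM in the mESC shMed12 libraries and 0.0831, 0.0386 and 0.0743 CPM in the mESC shNMC libraries (interaction log2 -2.59, SE 0.58, edgeR adjusted p = 0.0071), so the 2 sensor genes had interactions of opposite sign. Ifih1 was at or under the level of 3 reads in mESC shNMC 2 and 3 (0.0579 and 0.0743 CPM), so the size of its interaction is uncertain. Oasl2, an interferon-induced gene of the oligoadenylate synthetase family, had one of -2.45 (edgeR adjusted p = 0.0044). Of 15 Wnt targets, 2 were higher and 2 lower, beside the same shares of all genes. Ccnd1, which encodes cyclin D1, had effects of 1.09 after RA and 0.21 in mESCs (interaction log2 0.87, SE 0.17, edgeR adjusted p = 0.0029), and the adhesion receptor gene Cd44 1.39 and 3.01 (interaction log2 -1.62, SE 0.35, edgeR adjusted p = 0.0056). The calls of Ccnd1 and Cd44 were lost in the fit over 24 libraries, and those of Notum (0.96) and Rnf43 (-0.99) also without any 1 of 6 libraries each. Over single libraries left out, the Wnt target counts were 1 to 4 higher and 1 to 3 lower.

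Cell cycle genes had 5 higher and 0 lower interactions among 27, beside 4.43% and 9.55% of all genes, and all were small apart from E2f2. E2f2, which encodes an E2F factor of S-phase entry, had 12.5, 11.8 and 11.6 CPM in the RA shMed12 libraries and 13.4, 12.7 and 15.6 CPM in the RA shNMC libraries. It had 16.9, 17.3 and 17.6 CPM in the mESC shMed12 libraries and 33.3, 31.9 and 34.0 CPM in the mESC shNMC libraries (interaction log2 0.72, SE 0.12, edgeR adjusted p = 0.0012), and its after-RA effect was lost without any 1 of 10 libraries. The replication licensing genes Cdt1, Mcm7 and Cdc6 had interactions of 0.44, 0.35 and 0.32, and these calls were lost without mESC shMed12 1 (edgeR adjusted p = 0.051, 0.074 and 0.089), when the list held 1 called member. It held 2 or 3 without any RA shMed12 library, RA shNMC 2, mESC shMed12 2, mESC shNMC 1 or mESC shNMC 2. Cholesterol synthesis genes had 3 higher and 0 lower among 21 (median 0.35), beside the same shares of all genes. Lss, Cyp51 and Sc5d, which encode enzymes of that pathway, had interactions of 0.69, 0.51 and 0.48, with 16 of the 21 genes higher with the hairpin after RA and 6 in mESCs, beside 26.4% and 26.9% of all genes. The cholesterol count was 6 without RA shMed12 3, 5 without RA shNMC 1 or mESC shMed12 3, 5 with median-ratio scaling, 9 by the DESeq2 Wald test and 0 in the fit over 24 libraries. Of 18 glycolysis genes, Hk2 was higher (0.57) and Pfkm and Pfkp were lower (-0.68 and -0.59), beside the same shares. The calls of Hk2 and Pfkp were lost in the fit over 24 libraries.

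Over all genes tested, 14.0% were called in the interaction. Of 21 Polycomb repressive complex 1 genes, Rybp (-0.69) and Cbx8 (-1.40) were lower and Pcgf2 (0.30) was higher, a call lost without any 1 of 9 libraries. The call of Cbx8 was lost in the fit over 24 libraries. Of 10 genes of complex 2, Aebp2 was lower (-0.53) and Eed higher (0.40), and the call of Eed was lost in the fit over 24 libraries and without any 1 of 5 libraries. Without RA shNMC 3, complex 1 had 2 higher and 4 lower genes and complex 2 had 2 higher ones. Of the 7 kinase module genes the Med12 paralogue Med12l was called: its group means were 33.6 CPM in RA shMed12, 17.1 CPM in RA shNMC, 35.8 CPM in mESC shMed12 and 7.64 CPM in mESC shNMC cells (interaction log2 -1.26, SE 0.19, edgeR adjusted p = 0.00050). Of 26 other Mediator genes Med22 was higher (0.49). Without RA shNMC 3, 4 of them were higher and 2 lower, without RA shMed12 2 or mESC shMed12 3, 2 were higher, and without RA shMed12 1 or mESC shMed12 3, 1 was lower. Of 19 p53 targets Phlda3 was higher (0.53), a call lost in the fit over 24 libraries, and Pmaip1 lower (-0.87), and 2 were higher without mESC shMed12 3 or mESC shNMC 2.

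The RA response of shMed12 cells was also set against that of shCdk8 cells, with no shNMC library. Of 16018 genes tested, 880 had a higher RA response in shMed12 than in shCdk8 cells (5.49%) and 1570 a lower one (9.80%). Without RA shCdk8 2 the higher count was 570. Since the shMed12 libraries are shared with the interaction, values are set side by side and no overlap is read. The RA response of Ms4a4d was log2 1.6 in shMed12, 4.18 in shCdk8 and 5.26 in shNMC cells (difference of shMed12 from shCdk8 -2.59, edgeR adjusted p = 6.2e-05). For Gabrp it was 4.34 in shMed12, -1.41 in shCdk8 and -3.27 in shNMC cells (difference from shCdk8 5.74, edgeR adjusted p = 6.6e-07). For Hoxb4 it was 4.41 in shMed12, 6.44 in shCdk8 and 6.44 in shNMC cells (difference from shCdk8 -2.04, edgeR adjusted p = 0.0021). For Rarb it was 6.21 in shMed12, 4.73 in shCdk8 and 4.59 in shNMC cells (difference from shCdk8 1.47, edgeR adjusted p = 0.00014). Igtp, whose interaction passed, did not pass there, with 1.26 in shMed12 and 1.21 in shCdk8 cells (difference from shCdk8 0.04, edgeR adjusted p = 0.94).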

How the data were processed

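Each library came as a file of unscaled counts of reads by gene symbol, as the authors deposited them. STAR 2.3.1z13, HTSeq 0.6.1p1, SAMtools 1.2, DESeq2 1.6.3 and bcl2fastq 1.8.4 and the mm9 build are named, without roles, per the submitters' processing notes. Annotation and strand setting of the counting: not given in the sources used here. All 5 entries that name no gene were left out, and in the 12 libraries multiply aligned reads took 44.8% to 48.9% of the total. They are listed apart from the gene counts, so genes with near-identical copies are uncertain.

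The 12 libraries were fitted in edgeR 4.0.16 (R 4.3.3) with filterByExpr, TMM, robust dispersions (common coefficient of biological variation 0.0971), 8 residual degrees of freedom and the quasi-likelihood F test, adjusted by Benjamini-Hochberg over the 15995 genes tested. The other libraries of the series take no part in this interaction and were left out of the fit, and a fit over all 24 is an alternative. That fit also held the RA and mESC shCdk8 libraries and those labelled mESC control and mESC shRing1b. CPM values use TMM-scaled library sizes. RA status came from a fit of the 6 shCdk8 libraries (RA-induced or RA-repressed: adjusted p under 0.05 and at least 2-fold). The difference of RA responses between shMed12 and shCdk8 cells came from a fit of those 12 libraries.

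The genes named were the hairpin targets, reference genes, in each class and direction the 5 with the largest interaction among those with a group mean of at least 5 CPM, and, from lists holding at least 3 calls, up to 4 called members in order of p. Unnamed gene models, histone genes and pseudogenes were left out of the class rule. Other list members named were chosen after their values were seen, and a few genes that the rule or the lists hold are not reported here. The interaction, the members and the 24 gene lists were chosen with earlier results of these data known. Alternatives were median-ratio scaling, no filter, DESeq2 1.42.0, all 24 libraries, the replicate block, an adjusted p under 0.01 and leaving out each library. The fit was tested on simulated data.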

Additional observations from a re-analysis of the deposited data

Results flagged for a closer look

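The hairpin effect after RA differed from that in mESCs, by the interaction test, in 709 higher and 1528 lower genes, and the RA response of shMed12 cells differed from that of shCdk8 cells in 880 higher and 1570 lower genes. The named genes below had called effects of opposite sign in the 2 states, and the difference itself was tested with edgeR. The hairpin effect was positive after RA and negative in mESCs for Gabrp (interaction 7.61), Gna14 (interaction 3.03), Neurod1 (interaction 2.12), Slc13a4 (interaction 1.84), Tcfeb (interaction 1.70), Tdh (interaction 1.67) and Cdx1 (1.07). It was negative after RA and positive in mESCs for Otx2 (interaction -3.56), Foxi3 (interaction -3.29), Prokr2 (interaction -2.67), Greb1l (interaction -2.45), Eif4e1b (interaction -2.33), Ak5 (interaction -2.09), Ret (interaction -0.98) and Dnmt3a (-0.62). Of these, Otx2, Tdh, Tcfeb, Ak5 and Dnmt3a had mESC effects, and Greb1l an after-RA effect, that missed the threshold without some 1 library. Groups of 3 libraries are too small for a test of single libraries that stand apart.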

How the results depend on the processing

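No called interaction named here changed sign under any alternative run. At an adjusted p under 0.01, 318 genes were higher and 745 lower in the interaction, and the classes held 382 (before RA), 224 (after RA), 109 (wider), 277 (narrower) and 66 genes (opposite). List counts fell too at that threshold: the Hox, primed-state, trophectoderm and germline lists each held 5 lower members. Retinoid metabolism and binding then held 1 lower member, and extraembryonic endoderm and cell cycle 1 higher member each. The DESeq2 Wald test called 1098 genes higher. With all 24 libraries in the fit, 283 were higher and 537 lower, the same 5 classes held 311, 167, 70, 201 and 68 genes, and the shMed12 RA response differed from that of shCdk8 cells in 296 higher and 511 lower genes. That fit ended the calls of 49 of the 140 called genes that are named, and the cause was not tested. In it 4 pluripotency genes were higher and 3 lower, 3 immediate early genes were lower, and no extraembryonic endoderm gene was called. Median-ratio scaling ended 3 of the 140 calls, no filter 6 and DESeq2 1 (Rxrg). In every alternative fit, at an adjusted p under 0.05, 85 were kept. The stricter threshold of 0.01 is not part of that count, which includes T and Lrat, whose edgeR adjusted p was over 0.01.

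Whether replicate numbers pair the libraries was read from how deviations of same-numbered libraries correlated. All 3 correlations were over 0.1 for 1 of 6 pairs of groups, RA shNMC with mESC shMed12 (0.307, 0.171 and 0.390). Since the other 5 pairs each held a correlation under 0.1, the numbers were not taken to pair the libraries. Averaged by replicate number over the other groups, the correlations of 9 of the 12 libraries were highest for their own number. That is a hint of pairing from the data, not the design. With the replicate block, 1425 genes were higher, the after-RA class held 887, the wider class 617, the narrower class 945 and the opposite class 302 genes, and the shMed12 RA response differed from that of shCdk8 cells in 2371 higher and 2814 lower genes. The block ended no named call, and with it the interaction of Med12 itself passed (log2 0.35, edgeR adjusted p = 0.046). With the block 12 cholesterol genes were higher, 4 2-cell-like genes lower, 6 genes of Polycomb complex 1 lower, 4 other Mediator genes higher and 3 lower, and 5 interferon response genes higher and 8 lower.

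Leaving out 1 library gave 451 to 1054 higher and 1059 to 1855 lower genes. The classes held 424 to 903 (before RA), 303 to 694 (after RA), 187 to 378 (wider), 396 to 691 (narrower) and 131 to 237 genes (opposite). The difference from the shCdk8 response had 570 to 1041 higher and 1159 to 1687 lower genes, and 25 of the 140 named calls were lost without some library. Hoxb1 had 0.0415 to 0.186 CPM in mESC libraries, where 3 reads stand for 0.0579 to 0.0774 CPM.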
